A study of Gallus gallus with 13 samples.

Results

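The large early domains of chromosome 1 were the long stretches in which the earliest sorted fraction of S phase, S1, held the highest nascent-strand signal in wild-type (Wt) DT40 cells. They were chosen by the Wt profiles of the 4 fractions, averaged over windows of 20 kb after each fraction had been set to 0 at its 1st percentile and divided by its mean. Consecutive windows with the same leading fraction formed a run, and a run led by S1 over 400 kb or more was taken as a large early domain. The rule found 38 domains with 1113 windows, or 22.26 Mb, among 9787 windows of chromosome 1 with a leading fraction (11.4%). These windows were 50.8% of the 2191 windows that S1 led, while the domains were 38 of 179 runs led by S1 (21.2%). The other 141 runs led by S1 were shorter than 400 kb and held 1078 windows.

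The domains were compared between Wt cells and a homozygous clone of DT40, a chicken B cell line derived from a bursal lymphoma. The genotype of the clone is labelled 2x (betaA-globin+ beta-actin), and the design places its added elements at 71981290 to 73532377 of chromosome 1 (galGal5), DNA described there as replicating in middle to late S phase. Each line gave 1 library for each of the fractions S1 to S4, collected after a BrdU pulse of 1 h, so 8 of the 13 samples were used and each group held 1 library. The clone was 1 cell line, and the sources used here give no exact insertion positions for the line used for Repli-seq.

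In Repli-seq the DNA copied during a short pulse is captured from cells sorted by DNA content, so the fraction with the strongest signal tells when in S phase a locus is copied. Early domains in vertebrate cells are usually gene-rich, open chromatin in which groups of neighbouring origins fire near the start of S phase. Forks that leave such a domain copy the DNA beside it later, which gives the timing transition regions between early and late chromatin.

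The Wt values chose the domains, so they are given as a description. The clone's 4 libraries took no part in the choice. With 1 library in each group there was no replicate error and no test, so each difference below describes these libraries. The median differences in share and index over windows are set beside the same measure over all windows of chromosome 1. The profiles hold no counts, and the depth is unknown. Both measures used below come from shares. The share is the percentage of the summed scaled signal of a window that lies in a fraction. The timing index is the mean of the weights 4, 3, 2 and 1 for S1 to S4, weighted by those shares, so that 4 is all signal in S1 and 1 is all signal in S4. The zero of the scaled signal is set by a percentile and is not a true zero, so differences are given and not folds. No genome or gene annotation of the galGal5 build was used here, so no gene or sequence is placed in a domain.

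The domains lay along the whole chromosome. Their lengths ran from 400 to 1160 kb, with a median of 480 kb. When the chromosome was divided into 4 equal parts, these held, in order of position, 9, 13, 9 and 7 domains, or 4860, 8840, 4360 and 4200 kb, so the number was highest in the part just left of the middle. The most proximal domain began 420 kb from the start of the chromosome, and the last ended 1423 kb before its end. Intervals between neighbouring domains had a median length of 3480 kb and ran from 180 to 15340 kb. The 3 longest intervals without a large domain lay at 178960001 to 194300000, at 16020001 to 30720000 and at 144840001 to 159200000.

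Some neighbouring domains were separated only by DNA in which S4, the latest fraction, led no window. In 10 of the 37 intervals between domains no window was led by S4 in Wt, and 4 of these held windows led by S2 alone. The same held in both lines for 9 of the 10 intervals. In the interval left out, 77560001 to 78920000, S4 led 6 windows in the clone, and a break between stretches of the weighted-average profile lay inside it. By this measure in Wt, 16 domains formed 6 groups and 22 stood alone. The group with most domains ran from 12460001 to 16020000 with 4, and the longest ran over 4040 kb from 75680001 to 79720000 with 3. This longest group includes the interval at 77560001 to 78920000, so windows led by S4 divided it in the clone. Another group of 3 lay at 49040001 to 52240000. Length separated these intervals in part, since the longest interval without a window led by S4 was 1360 kb and the shortest with such a window was 740 kb.

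Inside the domains S1 was followed by S2 in both lines. The median S1 share over the 1113 windows was 67.9% for Wt and 68.4% for the clone, against 16.3% and 14.1% over all windows. For S2 the medians were 20.4% and 21.8%, against 17.7% and 18.1% over all windows. S3 held 6.31% in Wt and 5.06% in the clone, and S4 held 4.51% and 3.60%. The shares fell in the order S1, S2, S3, S4 in 719 windows in Wt (64.6%) and in 703 in the clone (63.2%). In Wt the rule itself puts S1 first, and this order was not counted over all windows or in the short runs. S2 was the second fraction in 988 windows in Wt, S3 in 34 and S4 in 91.

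**Figure D1:**
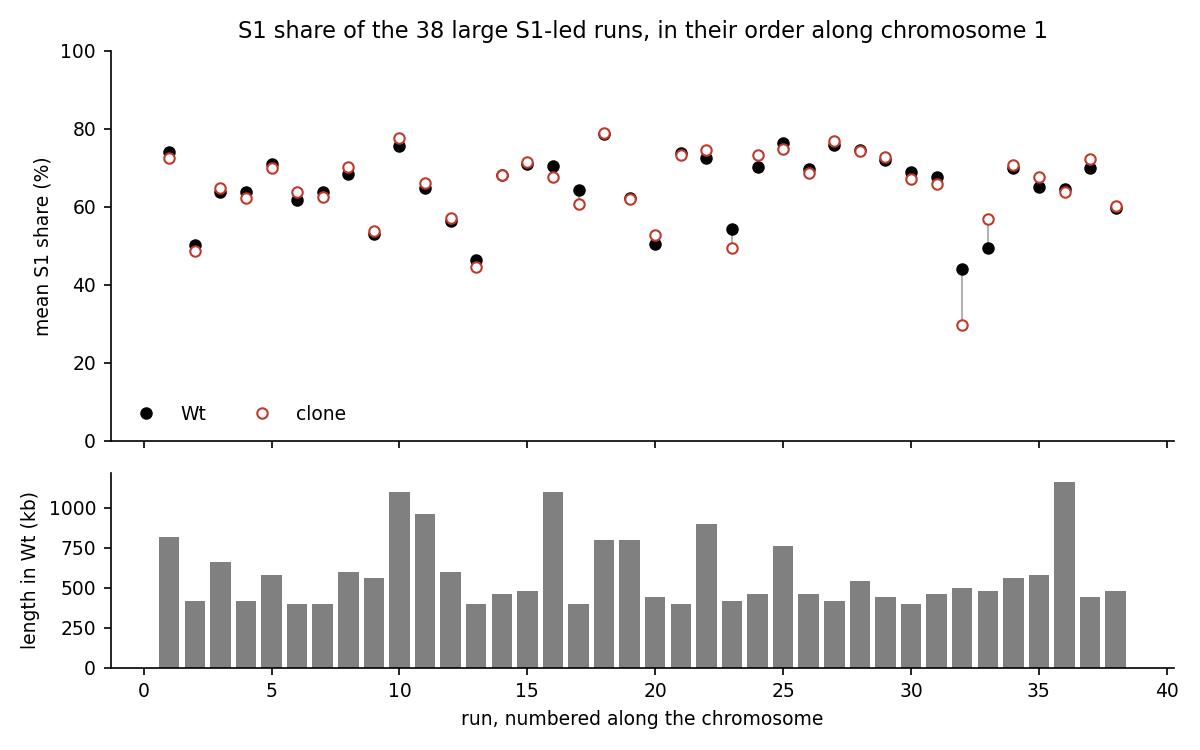
Upper panel: mean S1 share of the summed scaled signal (percent) in each of the 38 large early domains, numbered along chromosome 1, with a filled point for Wt and an open point for the clone joined by a line. Lower panel: length of the domain in Wt (kb). Domain 32, at 159200001, is the lowest in both lines, at 43.9% in Wt and 29.7% in the clone, and the others lie between 44.5% and 78.8%.

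Domains differed among themselves more than the lines did. Apart from 1 domain described below, the mean S1 share of a domain ran from 46.2% to 78.7% in Wt and from 44.5% to 78.8% in the clone, with an SD over all 38 of 9.01 and 10.2 percentage points. The SD over domains of the difference between lines was 3.17 percentage points. Across the 38 domains the S1 shares of both lines had a Pearson r of 0.954, and across the windows r was 0.93. These coefficients are descriptions, since the points share 8 libraries and neighbouring windows are smoothed together. Without the lowest domain, r over the other 37 was 0.967. In the plot of S1 shares along the chromosome the points of both lines lie close together in most domains.

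The longest domain ran over 1160 kb from 174360001 to 175520000. S1 held 64.4% of its signal in Wt and 63.6% in the clone, S2 20.2% and 23.9%, S3 8.23% and 7.08%, and S4 7.14% and 5.42%. Its S1 share had 4 summits in each line, where a summit is a local maximum that stands at least 5 percentage points above its surroundings. Between summits, at 174920001 to 174960000, S2 led in the clone by a small margin. The S1 shares of these neighbouring windows were 41.1% and 42.0% and the S2 shares 41.5% and 43.2%, while in Wt S1 held 51.3% and 50.1%. This dip cut the clone's run to 560 kb, although S1 led on both sides of it.

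The next longest domains both spanned 1100 kb. That at 49040001 to 50140000 had S1 shares of 75.6% in Wt and 77.5% in the clone, S2 shares of 11.1% and 14.7%, S3 shares of 7.03% and 3.56%, and S4 shares of 6.19% and 4.20%. Its single highest window reached 95.6% S1 in the clone, the highest of any domain in either line. The domain at 67600001 to 68700000 had S1 shares of 70.3% and 67.7% and S2 shares of 21.7% and 24.5%. Their S1 profiles as deposited, in SD units from the chromosome mean, stood at 1.02 in Wt and 1.10 in the clone for the former and at 2.48 and 2.26 for the latter. Of this pair, the domain with the larger S1 share thus had the lower deposited S1 score in both lines. Of the next in length, that at 50500001 to 51460000 (960 kb) had the largest S4 share of the 37 domains other than that at 159200001 in both lines, 11.0% and 9.02%, with S1 at 64.8% and 66.1%, S2 at 15.3% and 18.6%, and S3 at 8.93% and 6.25%. The domain of 900 kb at 91520001 to 92420000 had among the smallest, 1.15% and 0.718%, with S1 at 72.4% and 74.5%. The domain nearest the start of the chromosome, at 420001 to 1240000 (820 kb), had S1 at 74.1% and 72.5% and S2 at 16.1% and 19.1%, and S1 led each of its windows in the clone.

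The largest S1 shares in Wt were in 3 domains of different lengths. The domain at 76760001 to 77560000 had 78.7% in Wt and 78.8% in the clone, and S1 led all its windows in both lines. Next came 111860001 to 112620000, with 76.4% and 74.8%, and then 128920001 to 129340000, only 420 kb long, with 75.9% and 76.8%. The authors' weighted-average timing profile, which is higher where replication is earlier and was scaled separately in 16 stretches, stood at -0.50 for Wt and 0.02 for the clone over the domain at 76760001. Over the 38 domains its median was 0.931 for Wt and 1.10 for the clone, and 36 domains lay above 0 in the former and 37 in the latter. Since the stretches were scaled apart, these values are not on a common scale along the chromosome. Among domains with an S1 share over 70% in Wt, that at 76760001 was the only 1 below 0 in the weighted average.

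A domain of 500 kb at 159200001 to 159700000 went against the name of early domain. S1 led it in Wt with 43.9% of the signal, but S4 came second with 27.8%, followed by S2 with 14.3% and S3 with 14%. In the clone S4 held 36.9%, S1 29.7%, S3 18.2% and S2 15.3%. Its timing index stood at 2.74 for Wt and 2.38 for the clone, while the other 37 domains lay between 3.12 and 3.66 in Wt and between 3.15 and 3.71 in the clone. The weighted average was -1.09 and -1.06, the summed signal was the lowest of all domains in both lines, and in Wt S4 led the windows on both sides. In the clone S4 led on the left and S1 on the right. The deposited S1 score there was below the chromosome mean in each line, at -0.08 for Wt and -0.32 for the clone. Shorter runs led by S1 on both sides of it, at 158500001 to 158880000 and 159740001 to 160100000, kept S1 as leader in 42.1% and 61.1% of their windows in the clone. It is called here by its position, and values that rest on it are also given without it.

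Other domains near the bottom of the range had S2 behind S1. The domain at 53620001 to 54020000 had S1 shares of 46.2% and 44.5%, S2 shares of 30.3% and 34.4%, S3 shares of 12.5% and 12.7%, and S4 shares of 11.0% and 8.35% in Wt and the clone. The domain at 165720001 to 166200000 had S1 shares of 49.4% and 56.8%, the largest gain in S1 share among the domains, with S3 at 15.4% and 11.4%.

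The length threshold cut through a continuous range. The 6 runs of exactly 400 kb, just inside it, had S1 shares from 46.2% to 73.7% in Wt and from 44.5% to 73.2% in the clone. The 3 runs of 380 kb, just outside it, had 46.1% to 69.1% in Wt and 35.9% to 66.4% in the clone. Another 21 windows had a scaled signal of 0 in every fraction in Wt and so had no leader. If they were given to S1 they would add 1 run, at 74680001 to 75080000, which is left out here because it has no signal to rank.

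In the clone S1 led nearly all windows of the domains. It led 1063 of the 1113 (95.5%, exact 95% interval 94.1% to 96.6%), against 20.6% of all windows of the chromosome. The interval covers counting of windows only and is too narrow, since neighbouring windows are not independent. S1 led every window in 14 domains and at least 90% in 37, and the exception was the domain at 159200001, with 36%. The leading fraction thus differed between lines in 4.49% of the domains' windows, against 11.3% of all windows. Runs of 400 kb or more hold few windows beside a change of leader in Wt, so a low percentage is partly built in. The part of this choice was not tested. Without the domain at 159200001 S1 led 96.9% of 1088 windows.

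Most windows that S1 did not lead in the clone were led by the next fraction. Of these 50 windows S2 led 34 and S3 led 0. S4 led the other 16, and these lay in the domain at 159200001, with 0 elsewhere. Of the 34 led by S2, 25 were the outermost window at an end of a domain and 9 lay further in. The choice of windows by their Wt leader can by itself give fewer leads in the clone, so the domains were also set in the clone and read in Wt. That gave 33 domains with 997 windows, of which S1 led 971 in Wt (97.4%). The domains of both lines had 940 windows in common, 84.5% of those set in Wt and 94.3% of those set in the clone.

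The S1 share of the domains differed little between lines, and in no steady direction. The median difference over windows, clone minus Wt, was -0.09 percentage points, against -0.66 over all windows. By domain, S1 was higher in the clone in 20 and lower in 18. A difference of at least 5 percentage points towards more S1 in the clone was found in 175 windows (15.7%, against 10.7% of all windows) and towards less S1 in 182 (16.4%, against 19.4%). Other scalings put the median difference anywhere from -1.66 to 1.47 percentage points, so its sign depended on the scaling. Over all windows the same alternatives ran from -0.75 to 1.02. With domains set in the clone the median, here Wt minus clone, was -0.56 percentage points. The sign thus also depended on the line that set the domains.

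The second fraction differed more evenly across domains. The S2 share was higher in the clone by a median of 2.15 percentage points over windows, against 0.21 over all windows, and it was higher in 32 of the 38 domains. Choosing windows by a lead of S1 over S2 in Wt favours a low S2 share in Wt, so part of this rise can be built in. The windows of the whole chromosome were not chosen in this way, and the part of the choice was not tested. At least 5 percentage points more S2 was found in 260 windows (23.4%, against 12.3% of all windows) and as much less in 43 (3.86%, against 11.6%). The S2 median had the same sign under each alternative for which it was computed, but its size ran from 0.47 with the fractions scaled by their median to 2.48. These alternatives did not include domains set in the clone and read in Wt. Late fractions went the other way. The S3 share was lower in the clone in 30 domains and the S4 share in 35, with medians of -1.05 and -0.93 percentage points, against 0.15 and 0.05 over all windows. Over the same alternatives S3 ran from -1.27 to 0.16, and it was above 0 only with zero at the minimum, while S4 ran from -0.96 to -0.06. With fractions scaled by the median, S4 was -0.90 in the domains and -0.75 over all windows, so most of it was shared there. Over all windows the alternatives ran from -0.11 to 0.25 for S2, -0.34 to 0.33 for S3 and -0.75 to 0.10 for S4. At the main settings the short runs led by S1 had medians of 1.74 percentage points for S2, -0.32 for S3 and -0.27 for S4. The S2 difference in these runs was thus close to that of the domains.

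Differences of at least 5 percentage points were rarer in S3 and S4, where the domains had little signal. Their median S3 and S4 shares in Wt were 6.31% and 4.51%, against 21.1% and 27.8% over all windows. A window with under 5% of a fraction cannot lose 5 percentage points of it. The counts of falls are thus bounded by the low level, and windows of like level were not compared. S3 was lower in the clone by at least 5 percentage points in 63 windows (5.66%, against 11.3% of all windows) and higher in 17 (1.53%, against 14.3%). S4 was lower in 49 (4.40%, against 10.4%) and higher in 24 (2.16%, against 17.7%).

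The timing index was higher in the clone by a median of 0.028 over windows, against -0.013 over all windows, and it was higher in 33 of 38 domains. This direction was not kept under all scalings, since the median was -0.002 with zero at the 5th percentile and -0.007 with the clone quantile-normalized to Wt. With fractions scaled by the median it was 0.044, against 0.032 over all windows. The size also depended on which fractions the index held. With 1 fraction left out, the median was 0.096 without S1, 0.054 without S2, 0.012 without S3 and 0.002 without S4. The largest gains by domain were 0.165 at 165720001, 0.102 at 105980001, 0.093 at 49040001 and 0.085 at 169180001. The domain at 159200001 was lower by 0.365 in the clone, and the next lowest differences were -0.041 at 104580001 and -0.024 at 67600001. The summed scaled signal of a domain was higher in the clone in 24 of the 38 and lower in 14. Its median over the 38 was 4.36 for Wt and 4.63 for the clone, and its part in the index differences was not tested. The summed signal differed most in the domain at 194300001 to 194780000, at 6.22 for Wt and 8.29 for the clone. That domain lies near the end of the chromosome and has 7 windows inside a gap of the weighted-average profile. Its S1 share was 59.7% for Wt and 60.2% for the clone.

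The edges of the domains lay at nearly the same place in both lines. Of 76 edges, 28 fell in the same window, 19 lay further out in the clone and 29 further in. The edge was within 20 kb, or 1 window, in 63 (82.9%) and within 40 kb in 69. The 7 edges that moved further were in 6 domains.

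**Figure D2:**
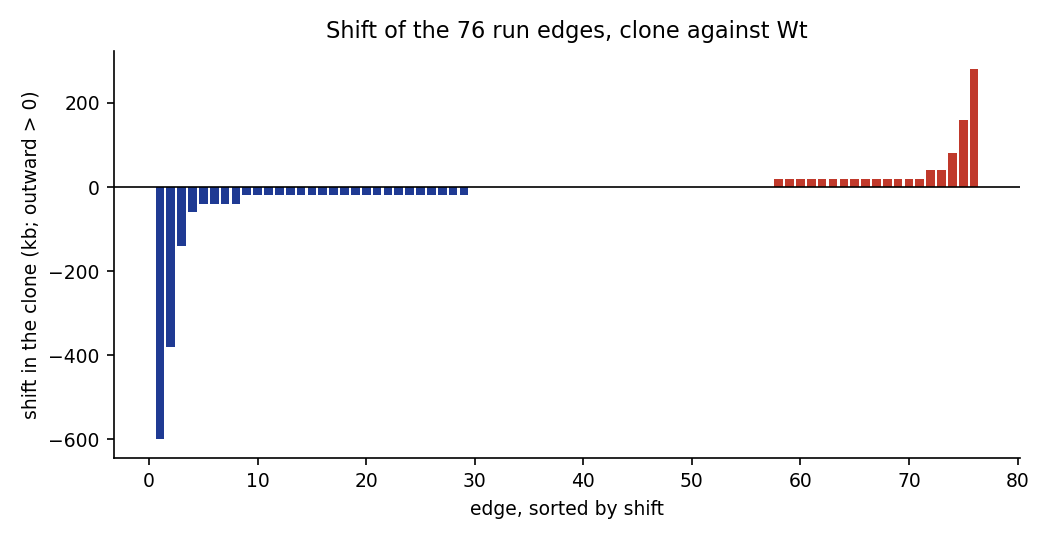
Shift of each of the 76 domain edges in the clone relative to Wt (kb, vertical axis, positive where the clone's domain reaches further out), sorted by size, with 1 bar for each edge. Most edges, 63 of 76, lie within 20 kb of the Wt edge, and the farthest is the inward shift of 600 kb in the longest domain.

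In 2 of the far shifts S1 and S2 had nearly equal shares where the run ended in one line. The inward shift of 600 kb at 174360001 ended at the dip described above. At 83600001 to 84040000 the clone's run reached 280 kb further to the right. There a single window at 84040001 had 41.1% S1 and 42.7% S2 in Wt, and 48.1% and 41.4% in the clone, so that the run ended there in Wt and went on in the clone. The domain at 159200001 had an inward shift of 380 kb at its start and an outward shift of 160 kb at its end. The domain at 104580001 to 105000000 ended 140 kb earlier in the clone, with S1 at 54.4% and 49.5% and S2 at 35.6% and 40.7%. In the plot of edge shifts these are the longest bars, at the ends of the sorted row.

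S2 led the window just outside 74 of the 76 edges in Wt, and the other 2 were the edges of the domain at 159200001, where S4 led. In the clone, at the same windows, S2 led 54, S1 led 21 and S4 led 1. Mean shares over the 76 edges showed how the fractions followed each other. In Wt the S1 share was 19.6% at 390 kb outside the edge, 37.9% in the window just outside, 45.6% in the window just inside and 69.7% at 190 kb inside. The clone had 18.7%, 37.3%, 44.0% and 71.6% at the same places. The S2 share was highest 50 kb outside the edge, at 46.9% in Wt and 45.7% in the clone, and at 190 kb inside it was 17.5% and 18.4%. Inside the edge, at 50 kb, the S2 share was 28.2% (SD 6.49 over the 76 edges) in Wt and 31.9% (SD 6.30) in the clone, with S1 at 58.1% and 55.6%. The succession from S1 to S2 and on to the later fractions along the DNA was the same in both lines.

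**Figure D3:**
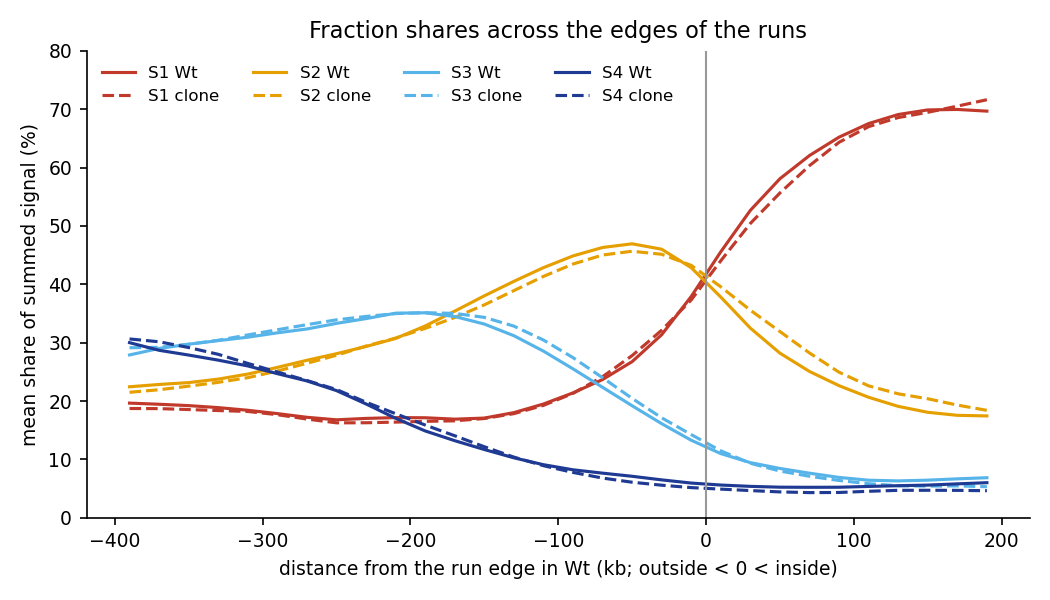
Mean share of each fraction (percent, vertical axis) by distance from the domain edge set in Wt (kb, horizontal axis, negative outside the domain), averaged over the 76 edges, with solid lines for Wt and dashed lines for the clone. The S1 share is 37.9% just outside and 45.6% just inside the edge in Wt, the S2 share is highest 50 kb outside, and the clone's lines run close to those of Wt.

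The distance to late chromatin varied widely. From an edge outward to the first window led by S4 the median was 700 kb in Wt, with a range from 0 to 4920 kb over 75 edges. In the clone it was 560 kb, with a range from 0 to 3440 kb. The distance was measured across other domains where these came first. That was so at each edge facing an interval without a window led by S4. The 4920 kb, from the end of the domain at 75680001, crossed the domains at 76760001 and 78920001. Such distances are not those to late chromatin directly beside a domain. In Wt 28 edges lay under 400 kb from such a window and 32 lay 1000 kb or more away. The distance was within 40 kb of the same value in both lines at 57 edges.

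S1 was most concentrated towards the middle of a domain. The rule set each edge where S1 lost its lead in Wt, so a lower S1 share near the edges is partly built in. The clone's profile ran close to that of Wt, and how much of its gradient comes from the choice was not tested. In the clone, the S1 share of the windows at least 160 kb from both edges of a domain minus that of its outer 60 kb at each end had a median of 23.5 percentage points, and it was positive in 37 of 38 domains. With zero at the minimum of each fraction the median was 3.17 percentage points. The exception was the domain at 159200001, with -7.24 percentage points. For S2 the same difference had a median of -18.3 and was negative in 36 domains. The window with the highest S1 share lay in the middle part of the domain, from 25% to 75% of its length, in 34 domains in the clone. It lay within 40 kb of its place in Wt in 25 domains and over 100 kb away in 8.

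Many domains had more than a single peak of S1. In Wt 16 domains had 1 summit of the S1 share, 13 had 2 and 9 had 3 or more, and those with 1 summit were 400 to 600 kb long. In the clone, 20 domains had 1 summit, and 23 domains had the same number in both lines. Of 71 summits in Wt, 46 had a summit in the clone within 40 kb, which is 64.8% of those in Wt and 74.2% of the 62 in the clone. How many would match by their density alone was not computed, nor was this done for the place of the maximum. Window by window, the S1 share of the longest domain went up and down along its length with S2 running opposite to it. In the domain at 159200001 the lines of S1 and S4 crossed in the clone, where S4 led 16 windows. In Wt the rule itself keeps S1 above S4 inside the domain, and S4 led the windows just outside both edges.

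**Figure D4:**
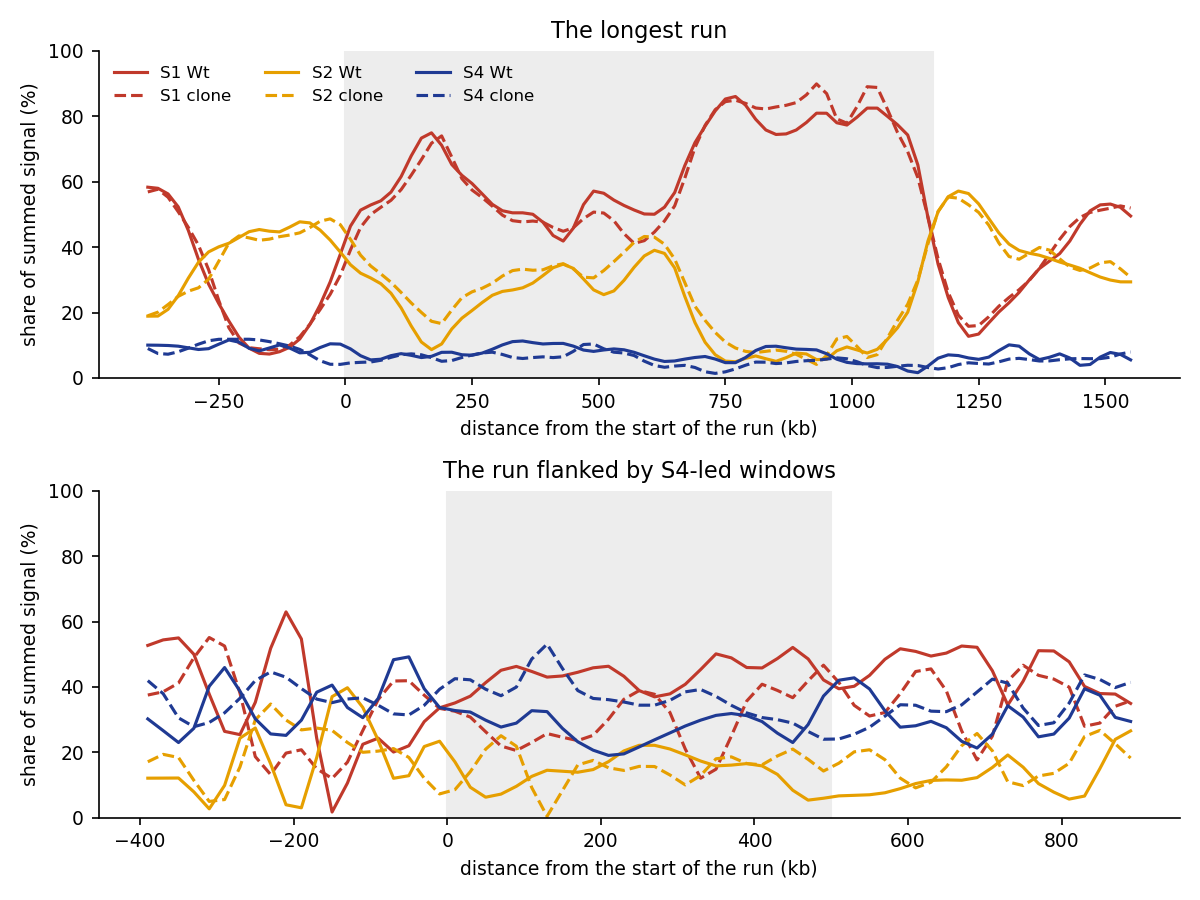
S1, S2 and S4 shares (percent, vertical axis) by distance from the start of the domain (kb, horizontal axis), with solid lines for Wt and dashed lines for the clone and the domain shaded, for the longest domain (upper panel) and the domain at 159200001 (lower panel). In the longest domain S1 dips to 41.1% in the clone between summits, while in the lower panel no window of the domain exceeds 52.1% S1 in Wt or 46.6% in the clone.

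Domain length and S1 share were only weakly related, and the direction depended on the settings. Across the 38 domains, length and mean S1 share had a Spearman rho of 0.291 in Wt and 0.295 in the clone, and length and the highest S1 share in the clone had a rho of 0.398. The rho of 0.295 was -0.029 with zero at the minimum of each fraction and 0.54 with runs of 300 kb or more. The domains share libraries, and a longer domain has fewer of its windows at an edge, so these are descriptions.

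The domains kept the lead of S1 more often than the short runs led by S1 did. The clone had S1 leading 803 of the 1078 windows in short runs (74.5%), which is 21.0 percentage points less than in the domains. The median S1 share of these windows was 48.6% for Wt and 46.3% for the clone. At the same distance from an edge the gap was smaller from 40 kb inwards. In the outermost windows S1 kept the lead in 65.8% for domains and 43.2% for short runs. At 20 kb from the edge the values were 93.4% and 70%. At 40 kb they were 97.4% and 84.6%, and at 60 kb 98.7% and 90%. At 80 kb they were 98.7% and 93.3%, and at 100 kb they were close, at 97.4% and 96.4%. At 120 kb they were 96.1% and 93.4%, and at 140 kb 97.4% and 92.5%, with only 40 windows of short runs at the latter. Within the domains, S1 led 85.5% of the 228 windows less than 60 kb from an edge and 98.1% of the 885 windows further in. Between domains, S1 led clearly fewer windows in the clone in both intervals beside the domain with the lowest S1 share. From 144840001 to 159200000 it led 171 in Wt and 103 in the clone, and from 159700001 to 165720000 it led 48 and 20. Over the whole chromosome it led 2191 and 2018, and other intervals changed in both directions. The comparisons with short runs were not repeated without these intervals, so their part was not tested.

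**Figure D5:**
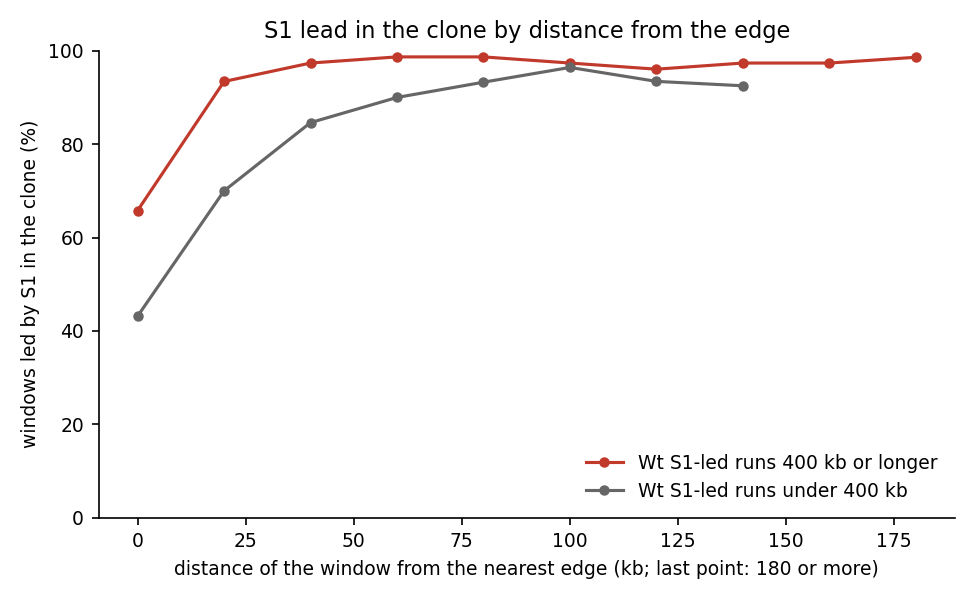
Percentage of windows led by S1 in Wt that S1 also led in the clone (vertical axis) by distance from the nearest edge of the run (kb, horizontal axis, the last point holding 180 kb or more), for large domains and for shorter runs led by S1. The outermost windows are lowest in both, at 65.8% in domains and 43.2% in short runs. The domains lie above the short runs at each distance shown for both, by least at 100 kb.

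No domain overlapped the region in which the clone carries its added elements. The nearest domain to its left, at 67600001 to 68700000, ended 3281 kb before it, and the nearest to its right, at 75680001 to 76080000, began 2148 kb after it. The latter had S1 shares of 64.3% in Wt and 60.7% in the clone, S2 shares of 23.4% and 29.8%, and timing indices of 3.44 and 3.47. Inside the region a run of 380 kb led by S1, at 72920001 to 73300000, fell short of the threshold by 1 window. Its S1 share was 59.9% for Wt and 62.0% for the clone, and S1 kept the lead in 94.7% of its windows.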

How the data were processed

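Repli-seq fraction profiles S1 to S4 of Wt and the clone on chromosome 1 were used (8 of 13 samples). The asynchronous library and the 4 Hi-C libraries were not analysed here. Per the labels' protocols, cells were pulsed with BrdU for 1 h, sorted, and labelled strands were immunoprecipitated and amplified before sequencing. The submitters' processing notes name Bowtie2 and the build galGal5, with versions, filters and smoothing not given in the sources used here. Deposited fraction values are scores, normalized and centred per the file headers, with mean 0 and SD 1 over the chromosome and 196153 values per profile spaced 1 kb. The deposited weighted averages are scores scaled within 16 stretches, with 15 gaps up to 709 kb long, in which the fraction profiles still hold values. The domains hold 12 windows in such gaps, in 2 domains. The header name cl6 was taken to be the clone.

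Values were averaged over 20 kb windows with at least 10 values and scaled as described in the results. The index, edges, summits and counts were computed with Python 3.11.15, numpy 2.4.6, pandas 2.3.3 and scipy 1.17.1, and the code was tested on simulated profiles. The domains, measures and alternatives were chosen with earlier results of these data known. Domains named in the text were the longest, those with the highest and lowest S1 shares, those with the largest differences in index or edges, and those nearest the target region. Domains also named for another feature were chosen after their values were seen. Alternatives were other window sizes, zeros, scalings, shortest runs, leaders from the deposited values, domains set in the clone and windows away from stretch ends. The index was also computed with each fraction left out. No test was made, since each group held 1 library.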

Additional observations from a re-analysis of the deposited data

How the results depend on the processing

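Of 140 alternative values for 11 results, 123 stayed within the limits set for them, 16 moved and 1 reversed, and 30 came from 3 alternatives added after seeing the data. For the S1 share and the index the limit was the SD of the difference over domains, 3.17 percentage points and 0.0747, which is wider than the differences themselves, so changes of their sign stayed within it. The S1 share difference, -0.09 percentage points, was above 0 with fractions scaled by the median (1.47), without windows near stretch ends (0.04) and without the domain at 159200001 (0.02). The index difference, 0.028, was below 0 with zero at the 5th percentile (-0.002) and with the clone quantile-normalized (-0.007). With domains set in the clone, the medians of Wt minus clone were -0.56 percentage points for the S1 share and -0.036 for the index. Both measures were thus higher in the clone there, and these values are not among the 140. The added alternatives left out windows in gaps of the weighted average, gave windows at 0 to S1, or left out the domain at 159200001. The percentage of windows in which S1 kept the lead in the clone, 95.5%, was 93.2% with 50 kb windows, 92.7% with zero at the minimum, 97.3% with fractions scaled by the median, 91.7% with the leader from the deposited values, 93.7% with runs of 300 kb or more, 96.9% without the domain at 159200001 and 97.4% with domains set in the clone and read in Wt. With zero at the minimum the difference between the centre and the edge, 23.5 percentage points, was 3.17, and the correlation of length with S1 share, 0.295, was -0.029. The latter was 0.54 with runs of 300 kb or more. The number of domains, 38, was 61 at 300 kb and 18 at 500 kb. It also depended on the scaling, with 26 for zero at the minimum and 52 for fractions scaled by the median. Both stayed within the limit for this number, a ratio of 1.5. The difference between large and short runs, 21.0 percentage points, was 26.8 at 300 kb and 14.5 at 500 kb. Moving the length threshold changes which runs are compared. The share of edges flanked by S2, 97.4%, was 100% without the domain at 159200001. It was 91.3% with fractions scaled by the median and 92.1% with the leader from the deposited values. With zero at the minimum it was 92.3%, and with runs of 300 kb or more 93.4%. These lower values stayed within the limit set for it. Windows whose S1 share differed, 357 at 5 percentage points, were 611 at 3 and 68 at 10, or 54.9% and 6.11% of the domains' windows, against 49.9% and 9.65% of all windows. For the remaining moves the cause was not tested. No paired analysis was possible because there was 1 library in each group. What depth limits could not be assessed, since the profiles hold no counts. Whole-genome amplification and the smoothing of the profiles act on every value, and their part was not tested.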
